A study of Homo sapiens with 20 samples.

Results

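The region described here is the MYC locus on human chromosome 8 with the long gene desert behind it, as seen by chromatin immunoprecipitation with sequencing (ChIP-seq) of the transcription factor RUNX1. Its members are all RUNX1 peaks from 50 kb before the RefSeq span of MYC (chromosome 8, 127735434 to 127742951, GRCh38) to 2 Mb beyond its end, that is from 127685434 to 129742951. The rule used position and no measured value, but it was chosen with earlier results of these data known. It found 31 of the 26642 peaks of the series, while 1335 further peaks lay elsewhere on chromosome 8. Libraries were made from THP-1 cells, a line established from an acute monocytic leukemia, with a doxycycline-inducible shRNA cassette directed against PU.1 (knockdown, n = 6 libraries) or holding a scramble sequence (control, n = 6 libraries), and the cassette was induced with doxycycline in both. Batch 1 consisted of 3 control libraries with 2 of the knockdown, and batch 2 of 3 control libraries with 4 of the knockdown. The replicates were separate immunoprecipitations and library preparations of these cell lines, so the p-values below measure the spread between such libraries, and a difference between the cell lines other than PU.1 cannot be told apart from the knockdown.

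MYC encodes a basic helix-loop-helix transcription factor that binds DNA as a dimer with MAX and drives growth and proliferation, and its level is tightly set in blood progenitors and often raised in leukemia. In blood cells, transcription of MYC depends on enhancers that lie very far downstream, beyond the noncoding RNA gene PVT1, in a cluster within and around the noncoding RNA gene CCDC26, before the next protein-coding gene GSDMC. RUNX1, the DNA-binding subunit of core-binding factor, and PU.1, an ETS family factor, bind many myeloid enhancers side by side. ChIP-seq of RUNX1 reads occupancy of the factor on DNA, and neither the PU.1 level nor transcription of MYC was measured in these libraries.

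The 31 peaks were 491 to 5846 bp wide (median 858 bp, against 889 bp over all peaks) and lay at a density of 15.1 per Mb, compared with 9.34 per Mb over the rest of chromosome 8. Each peak is named below by the distance of its centre from the start coordinate of MYC. They were grouped by position into 4 stretches, which were chosen with earlier results of these data known. One peak covered the start of MYC, 7 lay over PVT1 (+60 to +182 kb), 12 lay in the middle stretch from +415 to +1238 kb, and 11 lay in the distal stretch from +1711 to +1944 kb. No peak lay between +1238 and +1711 kb. All 11 distal peaks lay within the RefSeq span of CCDC26 (129351694 to 129680239), whereas the middle stretch held 6 peaks overlapping noncoding RNA genes (MIR1208, LOC124902020 and LINC00824) and 6 outside any gene of the RefSeq table. The part of GSDMC inside the window held no peak.

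The libraries held 630247 to 1199004 (control) and 938745 to 1719840 (knockdown) reads within all peaks. Counts are given below as normalised counts, that is raw reads divided by a size factor per library, and a raw count in the window ranged from 0 to 319 with a median of 27 in control and 41 in knockdown libraries. A peak was called gained or lost in knockdown cells at a Benjamini-Hochberg adjusted p under 0.05 over all 26642 peaks and a fold change over 1.1 (DESeq2, batch as covariate). Folds of single peaks are those of this fit and can differ slightly from the ratio of the group means.

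RUNX1 occupancy of the MYC locus changed in both directions. Of the 31 peaks, 21 were called (67.7%), where 42% of all peaks and 50.3% of the other chromosome 8 peaks were called. Of these, 13 were lost (41.9%, against 20.7% of all peaks and 33% of the other chromosome 8 peaks) and 8 were gained (25.8%, against 21.3% and 17.3%). The distal stretch held 7 lost and 1 gained of 11 peaks, the middle stretch 4 lost and 5 gained of 12, and PVT1 1 lost and 2 gained of 7, while the peak over MYC itself was lost by a small margin. Over 2-fold changes were seen at 12 of the 31 peaks (8 lost, 4 gained), compared with 17.1% of all peaks. The quasi-likelihood test of edgeR, which was run with TMM size factors, called 23 peaks (9 gained, 14 lost). It called 47.1% of all peaks (24.1% gained, 22.9% lost). These are counts over neighbouring sites of the same libraries and were not tested as a set.

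**Figure D1:**
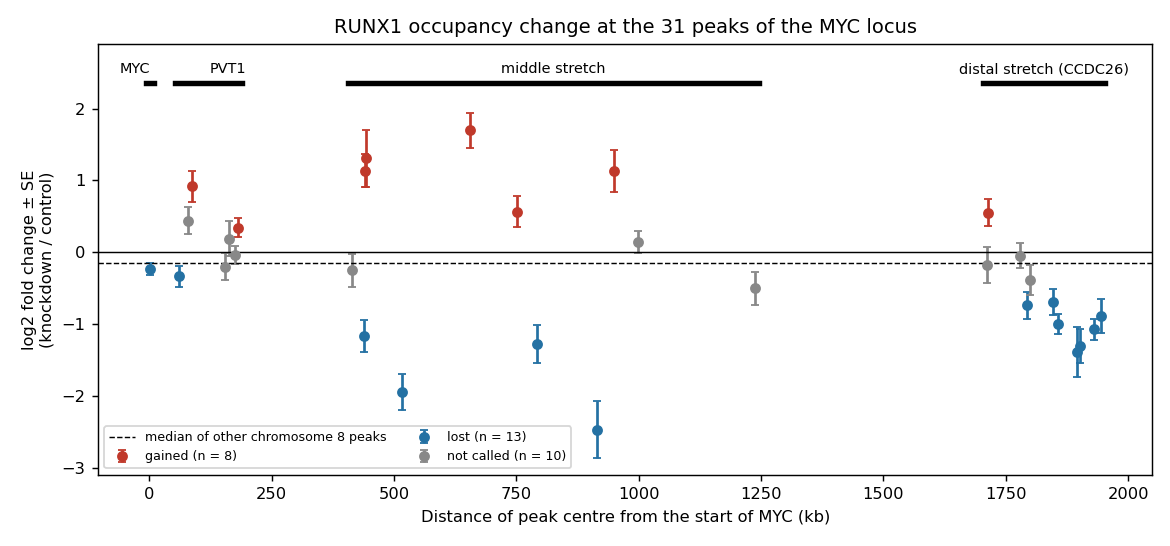
Log2 fold change of RUNX1 occupancy (knockdown over control, points with standard errors, both batches) of each of the 31 peaks against the distance of its centre from the start of MYC in kb. The distal stretch holds 7 lost peaks and 1 gained peak, the middle stretch holds 5 gained and 4 lost peaks, and the dashed line marks the median of the other chromosome 8 peaks at -0.15.

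The window has to be read against its chromosome, because chromosome 8 took a smaller share of the reads in every knockdown library. Chromosome 8 took 59.7 to 61.9 of every 1000 in-peak reads in control and 54.4 to 56.3 in knockdown libraries, and these ranges did not overlap in either batch. The median log2 fold change was -0.15 over the other chromosome 8 peaks, -0.025 over all peaks and -0.23 over the 31 members. Members took 1272 ± 70.1 of every 1000000 in-peak reads in control and 1126 ± 44.9 in knockdown cells (SD, n = 6 each), a ratio of 0.885 (0.888 within batch 1 and 0.864 within batch 2). Per 1000 reads of chromosome 8, they took 20.9 ± 0.900 and 20.4 ± 0.730, a ratio of 0.976, and here the groups overlapped. The level differed between batches, over which the groups are not balanced. Within batches the ratio was 0.973 (batch 1) and 0.960 (batch 2), with overlapping groups in each. The chromosome as a whole had a ratio of 0.907, and the source of this difference was not tested.

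Peaks were therefore also tested with size factors estimated from the other chromosome 8 peaks alone, which moved the median log2 fold change of all 26642 peaks from -0.025 to 0.12. With this scaling, 20 of the 31 peaks were called (9 gained, 11 lost), where 43% of all peaks were called (27.8% gained, 15.1% lost). The upward move itself raises the gained share of all peaks and lowers their lost share. Shares of the other chromosome 8 peaks with this scaling are not given. Of the 21 calls, 19 were kept in the same direction. The exceptions were the peaks at MYC and at the start of PVT1, and 1 peak within PVT1 was newly called as gained. The distal stretch still held 7 lost peaks and 1 gained peak, and the middle stretch 4 lost and 5 gained.

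The peak over the start of MYC was by far the widest and strongest of the window. It spanned 5846 bp (127733430 to 127739275), from the higher-coordinate end of CASC11, a noncoding RNA gene, into the MYC gene. It ranked 4 of 26642 in width and 76 of 26642 in mean normalised count. Per kb of width its mean normalised count was 39.3, which ranked only 9108. Control libraries held 274.2, 238.2 and 241.96 normalised counts in batch 1 and 256.7, 240.4 and 242.3 in batch 2. Knockdown libraries held 229.2 and 210.03 in batch 1 and 206.6, 198.2, 189.95 and 230.2 in batch 2. Every knockdown library lay below every control library, but the difference was small next to those further downstream. Occupancy fell 1.17-fold, from 248.9 ± 13.99 to 210.7 ± 16.3 (SD of 6 libraries each, with a log2 fold change of -0.23 ± 0.084 SE at an adjusted p of 0.0169 by DESeq2). Scaled on chromosome 8, its log2 fold change was -0.090 with an adjusted p of 0.416 by DESeq2. The call was also lost without control replicate 4, knockdown replicate 2 or knockdown replicate 5 (adjusted p 0.0527 to 0.0655 by DESeq2) and with peaks of at least 10 counts in every library only (0.126).

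Within PVT1, which has been described as both a neighbour of and a competitor for enhancers with MYC, 4 of 7 peaks were not called. The peak over the start of the gene (+60 kb, also covering MIR1204, a microRNA gene) held 62.2 to 100.6 normalised counts in control and 49.4 to 84.3 in knockdown libraries, and the groups overlapped in batch 2. Its log2 fold change of -0.34 ± 0.14 SE (adjusted p 0.0446 by DESeq2) lost its call in 14 of 18 alternative fits and, scaled on chromosome 8, had an adjusted p of 0.294 by DESeq2, so this loss is uncertain. The clearest change within PVT1 was a gain at +87 kb (127821915 to 127822711). This peak held 18.4 to 24.3 normalised counts in the control libraries (median 22.2) and 28.5 to 52.3 in the knockdown libraries (median 39.3). All knockdown libraries lay above all control libraries. The 1.89-fold gain (log2 fold change 0.92 ± 0.21 SE at an adjusted p of 0.000104 by DESeq2) was called in every alternative fit at the same thresholds.

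The 2 strongest peaks inside PVT1 lay next to each other at +176 and +182 kb. At +176 kb, the count was 87.1 ± 6.48 in control and 84.2 ± 6.21 in knockdown cells (SD, n = 6 each), and the 95% interval of the log2 fold change, -0.28 to 0.20, included no change. At +182 kb, control libraries held 58.6 to 85.8 and knockdown libraries 80.6 to 101.4. The groups overlapped, with control replicates 1 and 4 inside the knockdown range. The gain was called (log2 fold change 0.34 ± 0.13 SE at an adjusted p of 0.0270 by DESeq2) but lost without any 1 of 5 libraries. Scaled on chromosome 8 it was called with a log2 fold change of 0.48 (adjusted p 0.00126 by DESeq2). A peak at +79 kb, not called at first (29.7 ± 6.71 and 42.4 ± 9.29, SD, n = 6 each; adjusted p 0.0534 by DESeq2), was called as gained with that scaling (log2 fold change 0.58, adjusted p 0.00838 by DESeq2). The peaks at +155 and +164 kb were not called with either scaling. As a sum, the 7 peaks over PVT1 held 357.3 ± 34.9 normalised counts in control and 389.8 ± 14.3 in knockdown libraries, with overlapping groups. Their median log2 fold change was 0.19, which is 0.34 above that of the other chromosome 8 peaks.

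The middle stretch held the largest changes of the window in both directions, mostly at weak peaks. The largest loss was at +915 kb (128650035 to 128650596), outside any annotated gene. Raw counts there were 16, 27 and 13 in the control libraries of batch 1 and 17, 14 and 11 in those of batch 2, against 7 and 6 and then 0, 5, 6 and 2 in the knockdown libraries. This site was thus reduced to a handful of reads in each knockdown library, so its fold is imprecise. The fitted fall was 5.54-fold (log2 fold change -2.47 ± 0.40 SE at an adjusted p of 1.4e-08 by DESeq2).

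The loss at +516 kb (128251042 to 128251791), also outside genes, was measured more precisely. It held 31.2 to 45.6 normalised counts in control (median 35.8) and 6.39 to 11.9 in knockdown libraries (median 9.12). The lowest control library exceeded the highest knockdown library by a wide margin. The fall was 3.87-fold (log2 fold change -1.95 ± 0.25 SE at an adjusted p of 5.4e-13 by DESeq2), the smallest p of the window. A loss at +793 kb within LINC00824, a noncoding RNA gene, took the count from 26.5 ± 3.65 to 10.8 ± 2.61 (SD of 6 libraries each, with a log2 fold change of -1.28).

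Conversely, the largest fitted gain was at +656 kb (128390819 to 128391532), again between genes. Control libraries held 6.32 to 19.54 normalised counts (median 15.6) and knockdown libraries 38.2 to 49.5 (median 45.95). The site was among the weaker ones of the window in control cells and rose 3.24-fold (log2 fold change 1.70 ± 0.24 SE at an adjusted p of 4.0e-11 by DESeq2). The peak at +950 kb rose 2.19-fold, from 10.4 ± 2.84 to 22.6 ± 3.45 (SD, n = 6 each). Within LINC00824, the peak at +751 kb rose from 25.1 ± 7.58 to 38.8 ± 9.07 (log2 fold change 0.56 ± 0.21 SE at an adjusted p of 0.0231 by DESeq2), but knockdown replicate 1 held only 21.0 and the call was lost without any 1 of 4 libraries. Calls of opposite direction followed each other directly at 5 places of the middle stretch.

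The closest such pair lay within LOC124902020, an uncharacterized noncoding RNA gene, where only 746 bp separated a lost peak at +439 kb (128173979 to 128174641) from a gained peak at +440 kb (128175388 to 128176048). The first fell 2.25-fold, from a range of 29.3 to 41.6 normalised counts to 12.5 to 23.8 (log2 fold change -1.17 ± 0.22 SE at an adjusted p of 1.2e-06 by DESeq2). The second rose 2.19-fold, from a range of 12.99 to 21.9 to 26.5 to 45.3 (log2 fold change 1.13 ± 0.23 SE at an adjusted p of 5.6e-06 by DESeq2). In both cases no control library lay within the knockdown range. The ratio of the second to the first, which needs no size factor, was 0.313 to 0.613 in the control libraries and 1.6 to 3.1 in the knockdown libraries, so the first peak was the stronger in all 6 control libraries and the second in all 6 knockdown libraries. The next peak at +442 kb, the weakest of the window with a mean of 10.7 normalised counts, was gained as well (6.46 ± 4.26 to 14.9 ± 4.66, SD, n = 6 each), with overlapping groups. With size factors from all peaks, gains and losses balanced in the sum of the middle stretch, which was 303.6 ± 26.7 in control and 307.3 ± 25.7 in knockdown cells. The stretch had a median log2 fold change of -0.057, which is 0.095 above that of the other chromosome 8 peaks. Its strongest peak, at +999 kb, was not called (57.2 and 65.6 normalised counts on average, 95% interval of the log2 fold change -0.16 to 0.44), nor was that at +415 kb over MIR1208. At +1238 kb, the mean was 27.9 in control and 20.3 in knockdown libraries, which was not called by DESeq2 (adjusted p 0.072) and called as lost by edgeR (adjusted p 0.0423).

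**Figure D2:**
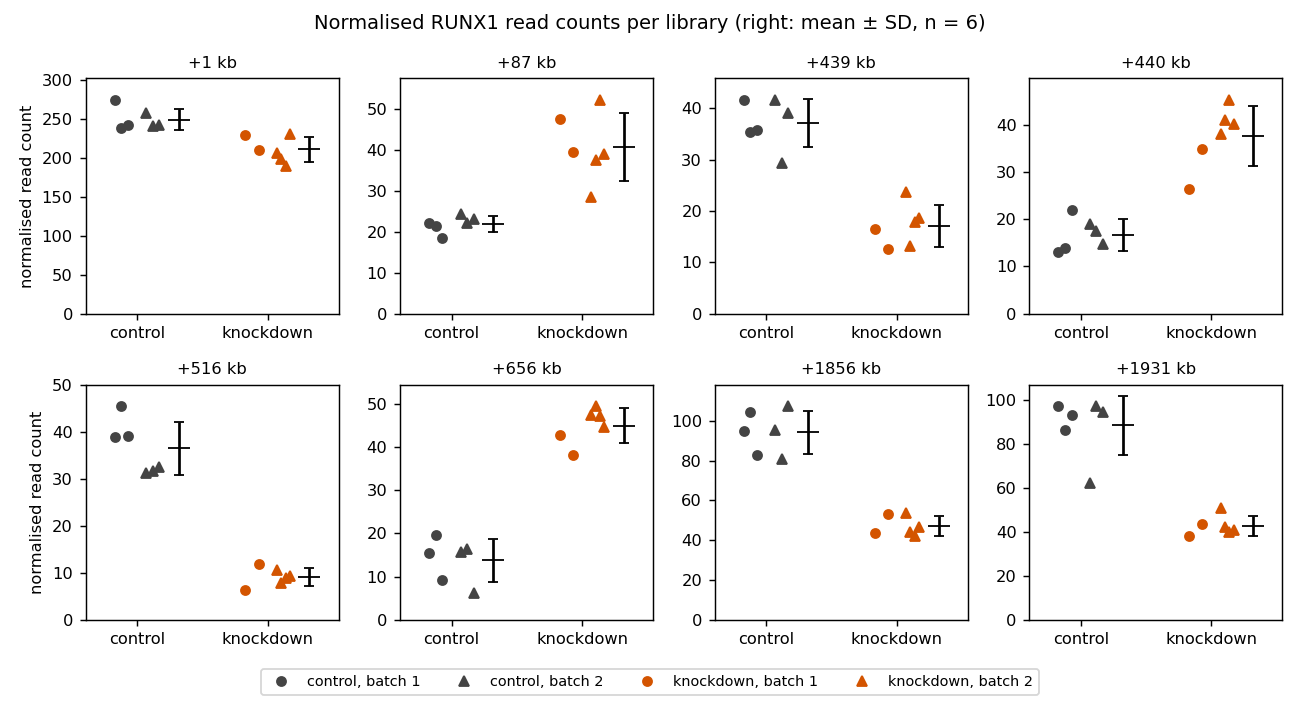
Normalised RUNX1 read counts of 8 peaks in each library, with circles for batch 1, triangles for batch 2 and the mean with its SD (n = 6) to the right of each group; panel titles give the distance from the start of MYC. At +516, +1856 and +1931 kb the knockdown libraries lie below all control libraries, at +656 kb they lie above all of them, and the neighbours at +439 and +440 kb move in opposite directions.

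The distal stretch, where the blood enhancer cluster is known to lie, carried mostly losses. Its 11 peaks summed to 479.3 to 561.4 normalised counts in the control libraries and to 273.1 to 350.6 in the knockdown libraries, a ratio of 0.651 between the group means (0.605 in batch 1, 0.662 in batch 2). The groups did not overlap, and the ratio was 0.646 without control replicate 1. Of the 11 peaks, 10 had a negative log2 fold change, with a median of -0.74, which is 0.59 below the median of the other chromosome 8 peaks. No share of all peaks with a negative log2 fold change is given. The knockdown libraries lay below all control libraries of their batch at 7 of the 11 peaks, where 13.9% of all peaks did in both batches.

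The distal peak with the highest mean normalised count lay at +1856 kb (129590195 to 129592751) and was 2557 bp wide. Per kb of width its mean normalised count was only 27.7, which ranked 18482 of 26642. It held 94.9, 104.2 and 82.96 normalised counts in the control libraries of batch 1 and 95.4, 80.9 and 107.4 in those of batch 2. Knockdown libraries held 43.8 and 53.3 in batch 1 and 53.4, 44.3, 42.1 and 46.6 in batch 2. Even the highest knockdown library stayed well under the lowest control library. Occupancy fell 2.002-fold (log2 fold change -1.001 ± 0.14 SE at an adjusted p of 3.1e-11 by DESeq2), and scaled on chromosome 8 the log2 fold change was -0.86 (adjusted p 1.8e-08 by DESeq2).

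A similar fall was found at +1931 kb (129665734 to 129667070), with 62.4 to 97.5 normalised counts in control (median 94.1) and 38.4 to 51.1 in knockdown libraries (median 41.6). Control replicate 4 was the low control library, yet it too lay above every knockdown library. The peak fell 2.10-fold (log2 fold change -1.07 ± 0.15 SE at an adjusted p of 6.8e-12 by DESeq2). The peak at +1901 kb fell 2.48-fold, from 38.2 ± 9.85 to 16.1 ± 5.08, and that at +1896 kb fell 2.62-fold, from 17.6 ± 4.79 to 7.04 ± 3.81 (SD, n = 6 each). At +1944, +1793 and +1847 kb, the log2 fold changes were -0.89, -0.74 and -0.69 (adjusted p 8.0e-04, 0.00045 and 0.00049 by DESeq2). The last 6 peaks of the window, from +1847 to +1944 kb, were all lost.

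Of the 3 distal peaks nearest to MYC, none was lost. The neighbours at +1711 and +1713 kb (129446480 to 129447141 and 129448464 to 129449371) held 19.6 ± 4.67 and 27.01 ± 6.64 normalised counts in control and 17.3 ± 1.74 and 41.4 ± 5.84 in knockdown cells (SD, n = 6 each). The latter was gained 1.47-fold (log2 fold change 0.55 ± 0.19 SE at an adjusted p of 0.0133 by DESeq2), with knockdown libraries above all control libraries within each batch. Its call was lost without control replicate 5 (adjusted p 0.0547 by DESeq2). The peak at +1779 kb held 45.98 ± 9.57 and 46.2 ± 8.20 (95% interval of the log2 fold change -0.39 to 0.30), and that at +1800 kb, next to the lost peak at +1793 kb, was not called (log2 fold change -0.38 ± 0.21 SE at an adjusted p of 0.130 by DESeq2).

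**Figure D3:**
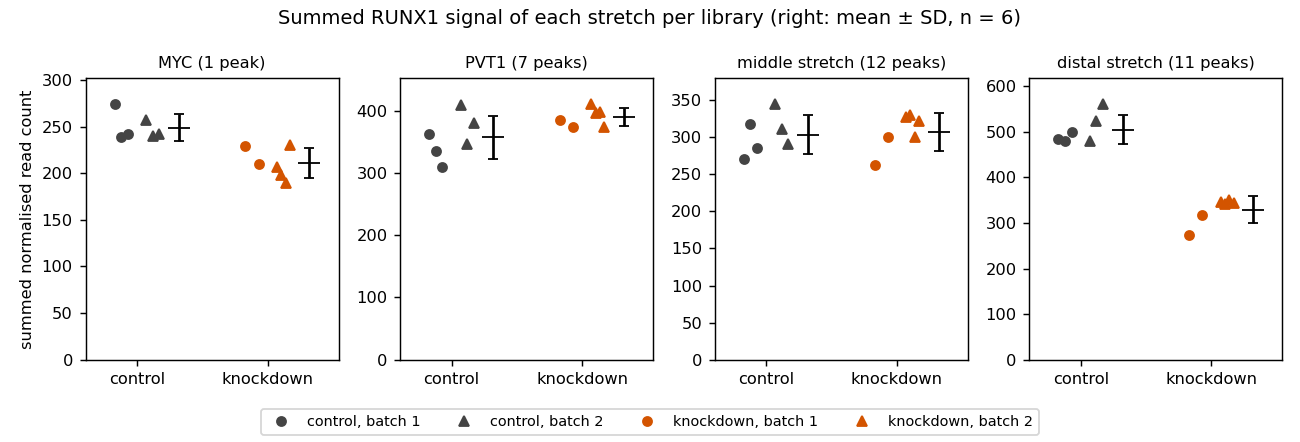
Summed normalised RUNX1 read counts of the peaks of each stretch in each library, with circles for batch 1, triangles for batch 2 and the mean with its SD (n = 6) to the right. In the distal stretch the knockdown libraries (273.1 to 350.6) lie below all control libraries (479.3 to 561.4), whereas the groups overlap over PVT1 and in the middle stretch.

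Over the whole window, the knockdown libraries lay above all control libraries in both batches at 5 of the 31 peaks (14.4% of all peaks did) and below all of them at 12 (13.9% of all peaks, and 28.3% in either direction). The 5 gained sites were those at +87, +440, +656, +950 and +1713 kb. Sites that separated downward comprised the MYC peak, the 4 lost peaks of the middle stretch and all 7 lost peaks of the distal stretch.

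**Figure D4:**
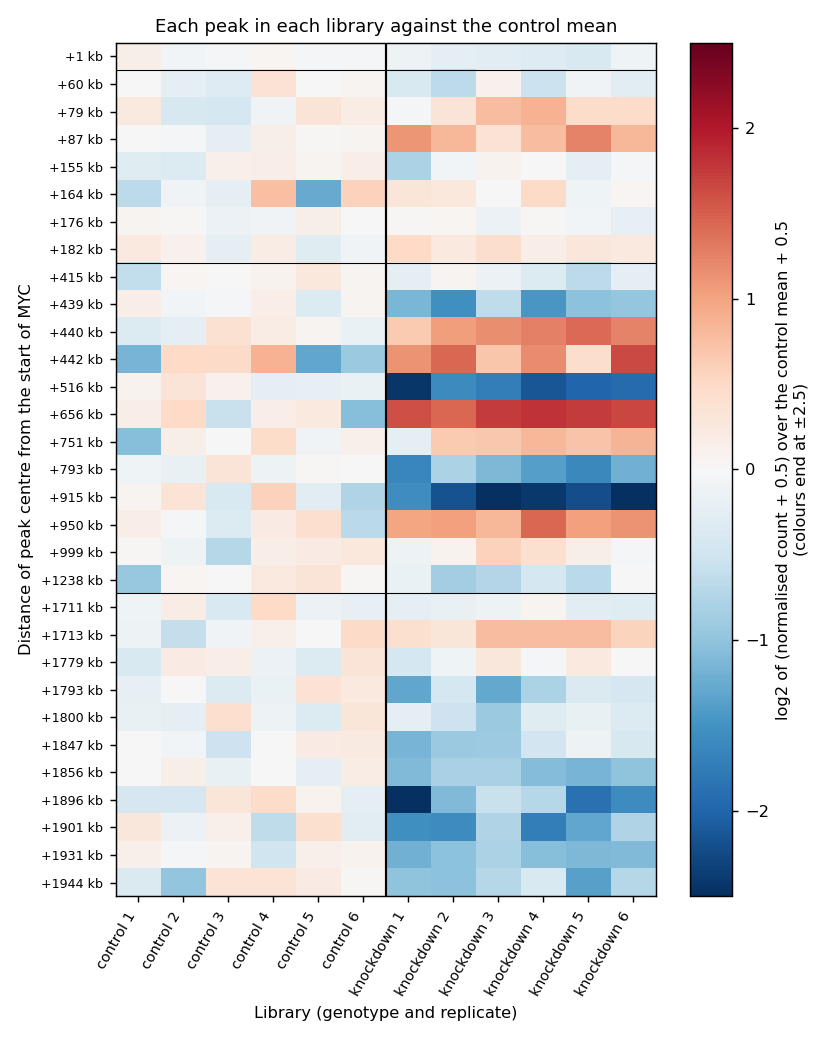
Each of the 31 peaks (rows, by distance from the start of MYC) in each of the 12 libraries (columns), coloured by the log2 ratio of its normalised count to the mean of the 6 control libraries, with 0.5 added to both. The lost peaks at +439, +516, +793 and +915 kb and those from +1847 to +1944 kb are mostly blue in the knockdown libraries, and the gained peaks at +440, +656 and +950 kb are red. At +1847 kb, knockdown replicate 5 held 47.2 normalised counts, near the control mean of 51.5.

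Each batch alone gave fewer calls than the joint fit, and batch 1 gave fewer gains and fewer losses than batch 2. In batch 1, 7 of the 31 peaks were called (1 gained, 6 lost), where the background was 12% (5.38% gained, 6.61% lost). Batch 2 alone gave 14 (4 gained, 10 lost), where 25.8% were (12.8% gained, 13.1% lost). All 7 peaks called in batch 1 were called in batch 2 in the same direction. These were the losses at +439, +516, +915, +1856, +1901 and +1931 kb and the gain at +656 kb. All 21 peaks called in the joint fit had the same sign in both batches, as did 27 of the 31 members. The joint fit used both batches, so equal signs at its called peaks were largely set by that choice. Shares of all peaks with such agreement between batches are not given. At +516 kb, the log2 fold change was -2.13 ± 0.47 SE in batch 1 and -1.82 ± 0.37 in batch 2, and at +1856 kb -0.93 ± 0.28 and -1.04 ± 0.20. The peak over MYC changed by -0.18 ± 0.18 and -0.26 ± 0.12 and was called in neither. A difference between the batches was called for 0 of 31 members with DESeq2 or edgeR (interaction, adjusted p under 0.05). The same held for all 26642 peaks (0 called), so this says nothing particular about the members. At an unadjusted p under 0.05, DESeq2 gave 0 members (smallest p 0.166), where 2.51% of all peaks passed. The edgeR interaction likewise gave 0 members, with no share of all peaks at hand. Without 1 of the 3 control libraries of batch 1, 3 or 4 peaks were called there, with no share of all peaks given for these fits. Without knockdown replicate 1 or 2, 0 and 1 were called, but the spread then came from the control libraries alone, with the lone knockdown library assumed to vary like them, so these 2 counts say little about stability.

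**Figure D5:**
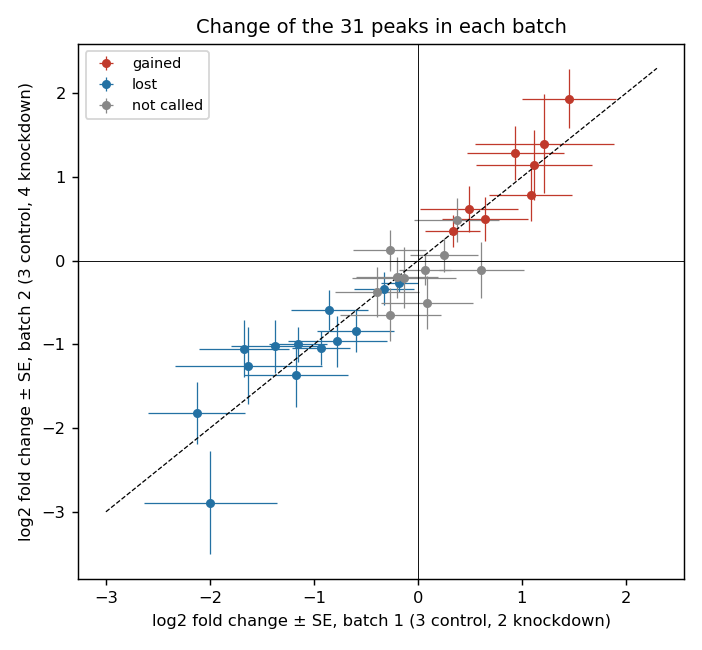
Log2 fold change of each of the 31 peaks in batch 1 (horizontal) against batch 2 (vertical), with standard errors; colours give the call in the joint fit and the dashed line marks equal change. All 21 called peaks lie in the lower left or upper right quadrant, but their calls came from both batches fitted together.

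Beyond both borders of the window, the nearest RUNX1 peak changed as well. On the near side, the first peak outside lay 117974 bp before the border (127566829 to 127567460) and held 31.7 ± 8.13 normalised counts in control and 19.7 ± 2.91 in knockdown cells (log2 fold change -0.67, adjusted p 0.00856 by DESeq2), while the first peak inside is that over MYC. At the far border, the last peak inside was the lost one at +1944 kb (35.3 ± 10.9 to 19.6 ± 4.74). The first peak outside, within GSDMC and 8916 bp past the border (129751867 to 129752760), held 10.4 ± 4.38 and 31.3 ± 6.81 (SD of 6 libraries each, with a log2 fold change of 1.71), opposite in sign to the 6 lost peaks before it.

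For comparison, the loci of 13 other genes of the MYC network were examined, namely the dimer partner MAX, the antagonists MXD1, MXD3, MXD4, MXI1, MNT and MGA, the parallel branch of MLX, MLXIP and MLXIPL, the paralogs MYCN and MYCL, and ZBTB17, through which MYC represses genes. Within 50 kb of 12 of them (none at MYCN) lay 63 peaks, of which 14 were gained and 17 lost (together 49.2%, against 42% of all peaks, of which 21.3% were gained and 20.7% lost). At MYCL, 7 of 9 peaks were lost and none was gained, and the one with the smallest p (chromosome 1, 39889944 to 39890888) fell from 294.5 ± 11.4 to 127.1 ± 15.8 normalised counts (SD of 6 libraries each, with a log2 fold change of -1.25, adjusted p 2.3e-41 by DESeq2). At MLXIPL, 4 of 8 peaks were gained and 1 lost, led by a peak within the gene (chromosome 7, 73622787 to 73623819) that rose from 18.7 ± 5.85 to 62.02 ± 8.02 (log2 fold change 1.75). At MXI1, 3 of 7 peaks were gained and none lost, led by one at 110192338 to 110193097 of chromosome 10 (61.2 ± 7.79 to 153.5 ± 22.2), a chromosome whose own median log2 fold change was 0.14. The leading peak at MXD3, a loss (chromosome 5, 177350073 to 177352255, log2 fold change -0.74), and the single peak near MXD4, a gain (chromosome 4, 2217618 to 2218207, log2 fold change 1.47), lay within the neighbouring genes LMAN2 and POLN. Peaks at these distances may belong to other genes.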

How the data were processed

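RUNX1 ChIP-seq was analysed in 12 libraries of THP-1 cells, and 8 IgG libraries were not analysed here. By the published methods, the authors mapped reads with bowtie2, removed duplicates, called peaks with macs2 per condition and batch, kept those reproducible between batches, merged both conditions and ran featureCounts. Deposited were raw counts per peak with no normalization, and the deposited peak width in bp served as other information. The peaks were called on the libraries compared. The labels name GRCm38 and GRCh38; 24.4% of peaks had a coding-gene end of RefSeq GRCh38.p14 within 1 kb, against 5.48% to 7.58% when moved by 10 kb to 1 Mb, so GRCh38 was used. The gene table gives no strand or exons.

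All peaks were fitted with DESeq2 1.42.0 in R 4.3.3 (median-of-ratios size factors, batch as covariate), within each batch, with an interaction term, and with size factors from the 1335 other chromosome 8 peaks. Intervals of log2 fold changes are Wald intervals. Every called peak, the one nearest MYC and the 5 strongest were to be named, plus, for at most 5 network genes, the call with the smallest adjusted p. Alternatives included edgeR 4.0.16. Scripts were tested on simulated data. No duplicate libraries were seen (chi-square per degree of freedom 1.29 to 2.24 within groups). Members, stretches and gene lists were chosen with earlier results of these data known.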

Additional observations from a re-analysis of the deposited data

Results flagged for a closer look

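In 74 groups of 6 libraries (31 peaks, 4 stretches and 2 shares in each genotype), a library far from the other 5 was searched for by the ratio of its gap to the range. Chance flags about 1 in 20 groups, or 3.7 of 74, and 5 were found. The MYC stretch is its 1 peak counted again and the other stretches sum the same peaks, so the groups are not independent. Control replicate 1 was low at +415 kb with 16.9 normalised counts (26.5 to 31.7 in the other control libraries) and at +1238 kb with 14.3 (27.7 to 35.2); neither peak was called. Control replicate 3 was high at the lost peak at +793 kb with 33.4 (23.3 to 26.97 in the others). Control replicate 4 was low at the lost peak at +1931 kb with 62.4 (86.5 to 97.5). Knockdown replicate 1 was low at the gained peak at +751 kb with 21.0 (39.5 to 45.7). No peak moved in opposite directions in the 2 batches with separated libraries.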

How the results depend on the processing

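The 21 calls in the window became 23 with edgeR, 22 with TMM size factors, 21 with total counts or without the batch covariate and 17 to 21 without each library, and no shared call changed direction. Beyond the shares of all peaks given above, none is given for the other fits of this section. A changed count in them therefore need not concern the locus. With at least 10 counts in every library 12 of the 23 peaks left were called, also when scaled on chromosome 8 (20 calls otherwise, and 20 to 20 without each library), and a fold change over 2 left 12 by construction. Of the 21 called peaks, 16 kept their call at unchanged thresholds in every alternative fit that tested them, the exceptions being +1, +60, +182, +751 and +1713 kb. In batch 1, edgeR called 13 peaks instead of 7 for a cause that was not tested, and fits without each library gave 0 to 4, the lowest with a lone knockdown library assumed to vary like the controls. In batch 2, leaving out a library gave 9 to 14, lowest without control replicate 5 or 6. The median log2 fold change of the window was -0.16 with the count filter and -0.29 to -0.18 without each library, and the ratio of the window's share of reads was 0.976 per read of chromosome 8 instead of 0.885. The uncalled peak at +176 kb changed sign with the count filter (0.030) and without control replicate 5 (0.0060; -0.073 to 0.0060 without each library).

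With the replicate number as a block, 18 peaks were called (those at +1, +60 and +182 kb no longer passed), and 22 instead of 31 at the network loci. The labels share only numbers here: deviations of same-numbered libraries correlated between -0.090 and 0.23, and 1 of 6 control libraries matched its own number best. Counts near 10 reads limit the weakest sites.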
